A study of Homo sapiens with 24 samples.

Results

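The genes of the mitochondrial genome were described in 2 ovarian cancer cell lines treated with the conjugated antimetabolite 5-FdU-ECyd. Members were chosen by position alone, as the rows of the count table whose Ensembl identifier lies on the mitochondrial chromosome (chrM, 16569 bases in GRCh38), which gave 37 of 63299 genes, 13 protein-coding, 2 rRNA and 22 tRNA. That rule uses no measured value, but the members were chosen with earlier results of these data known. The study sequenced whole transcriptomes of the isogenic lines A2780, which is platinum-sensitive, and A2780cis, which is platinum-resistant. Each line was left untreated (control) or received 1 µM of 5-FdU-ECyd, a compound that joins 5-fluorodeoxyuridine to ethynylcytidine, and cells were harvested after 6 h or 12 h. This made 8 groups of 3 libraries, 24 in all. A2780cis had been kept resistant by passages in 1 µM cisplatin, a history that its untreated groups share with its treated ones, and each line stands for 1 culture history only. The study calls the libraries of a group biological replicates. Neither it nor the labels say whether these came from separate passages or days, so the p-values measure the spread between these libraries only.

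The human mitochondrial genome is a small circle that is transcribed from both strands into long precursor RNAs by its own RNA polymerase, POLRMT, together with the factors TFAM and TFB2M, and not by the nuclear RNA polymerases. In most places a tRNA gene lies between neighbouring rRNA and mRNA genes, and excision of the tRNAs from the precursor by mitochondrial RNase P (5′ end) and ELAC2 (3′ end) releases the mature mRNAs and rRNAs. The proteins encoded here are core subunits of respiratory chain complexes I, III and IV and of ATP synthase, and all other subunits of these complexes are encoded in the nucleus and imported.

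Of the 37 members, 28 had the sense of the plus strand of chrM (12 protein-coding, 2 rRNA and 14 tRNA) and 9 that of the minus strand (MT-ND6 and 8 tRNA). Sequences below were read from GRCh38 for the tRNA genes on which the comparisons turned. The first set is shown because these 5 plus-strand tRNAs, singled out after their values were seen, had lower counts with treatment while none of the mRNAs beside them was called lower. Not each of the 5 was called in every comparison, and in A2780 other plus-strand tRNAs were called lower as well. MT-TH (histidine), MT-TS2 (serine) and MT-TL2 (leucine) lie end to end at chrM:12138-12336 between MT-ND4 and MT-ND5, and capitals mark MT-TS2. MT-TG (glycine, between MT-CO3 and MT-ND3, chrM:9966-10083) and MT-TR (arginine, between MT-ND3 and MT-ND4L, chrM:10380-10494) are in capitals, with 25 bases of the neighbouring genes on each side.
MT-TH, MT-TS2 and MT-TL2: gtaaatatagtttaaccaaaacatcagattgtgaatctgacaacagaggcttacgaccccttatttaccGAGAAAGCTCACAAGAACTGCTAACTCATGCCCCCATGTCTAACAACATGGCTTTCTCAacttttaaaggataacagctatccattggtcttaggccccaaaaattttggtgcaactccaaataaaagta
MT-TG: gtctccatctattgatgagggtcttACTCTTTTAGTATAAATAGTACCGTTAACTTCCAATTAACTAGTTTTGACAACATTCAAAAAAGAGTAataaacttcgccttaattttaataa
MT-TR: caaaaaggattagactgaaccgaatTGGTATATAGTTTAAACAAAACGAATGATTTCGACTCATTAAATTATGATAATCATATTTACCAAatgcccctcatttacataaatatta

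The second set is shown because these 4 tRNA genes, which lie head to tail on the minus strand between MT-ND2 and MT-CO1, had by far the highest levels per length among the tRNAs. They are given in the sense of the tRNA. MT-TA (alanine) is at chrM:5587-5655, MT-TN (asparagine) at chrM:5657-5729, MT-TC (cysteine) at chrM:5761-5826 and MT-TY (tyrosine) at chrM:5826-5891.
MT-TA: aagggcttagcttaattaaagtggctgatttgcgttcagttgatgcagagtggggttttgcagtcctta
MT-TN: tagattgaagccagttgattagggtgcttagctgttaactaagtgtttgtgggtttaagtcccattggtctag
MT-TC: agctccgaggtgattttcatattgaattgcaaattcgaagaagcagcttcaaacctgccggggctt
MT-TY: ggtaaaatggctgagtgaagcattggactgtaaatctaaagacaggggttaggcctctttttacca

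Some members share bases. MT-ATP8 and MT-ATP6 overlap by 46 bases, shown in capitals at chrM:8497-8602 because reads there counted for both genes, and MT-ND4L and MT-ND4 overlap by 7 bases.
MT-ATP8 and MT-ATP6: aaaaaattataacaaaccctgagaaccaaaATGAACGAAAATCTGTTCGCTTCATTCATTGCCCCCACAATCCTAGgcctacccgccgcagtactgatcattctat

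Libraries held 11077368 to 21901406 counts, and the mitochondrial share of these was 5.10% to 9.94%. All 37 members passed the filter on low counts. The tRNA genes are 59 to 75 bases long, no longer than the 75-base reads. The labels give single reads and the study's methods paired-end reads, in which case a count stands for a fragment that can be longer than a read. With either, a count for a tRNA gene can also derive from a precursor that spans it. The strand setting used for counting is not given in the sources used here. Reads of a minus-strand gene (a tRNA or MT-ND6) and of a plus-strand precursor through the same place therefore cannot be told apart. Nuclear copies of mitochondrial genes (399 genes, led by MTCO1P12, MTND2P28 and MTATP6P1) took 7.08 to 8.02 counts for every 100 mitochondrial counts in every library. Both lines expressed the mesenchymal marker VIM at 879 to 2564 CPM and CDH2 at 1.31 to 51.2 CPM. Of the epithelial markers, KRT18 (0.696 to 29.2 CPM), KRT8 (0.522 to 6.92 CPM) and EPCAM (0.0691 to 2.20 CPM) had counts in every library, whereas PAX8 and CDH1 reached at most 2 counts. Of the leukocyte, endothelial and erythroid markers, CD79A reached 5 counts and was at 0 in 3 of the 24 libraries, HBA1 reached 4.5 counts and was at 0 in 9, and CD14 reached 3 counts and was at 0 in 17. PTPRC, CD3E, PECAM1 and VWF reached at most 1 count, and CDH5 and HBB were at 0 in every library. The fibroblast genes COL1A1, DCN and LUM reached 18.9, 11.9 and 3.67 CPM.

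Per length, transcript levels in untreated cells spanned the widest range among the tRNAs. Levels are CPM (counts scaled to an equal library total, after TMM normalisation) divided by gene length in kb, as mean ± SD of 3 libraries of untreated cells at 12 h. In A2780 the 3 subunits of cytochrome c oxidase (complex IV) came first, MT-CO3 at 10443 ± 327, MT-CO1 at 9417 ± 695 and MT-CO2 at 8580 ± 220 CPM per kb. The tRNA genes MT-TY (6121 ± 328), MT-TC (5847 ± 292) and MT-TN (5475 ± 106) stood among the mRNAs, beside MT-ND4L (6046 ± 570) and MT-ATP6 (5958 ± 503). MT-TY, MT-ND4L, MT-ATP6 and MT-TC did not differ beyond their SD. The tRNA genes are no longer than a read, and a read that reaches past such a gene also counts for it. Division by so short a length raises tRNA levels beside the longer mRNAs, so tRNA ranks among mRNAs are uncertain in both lines. The large rRNA, MT-RNR2, had 2958 ± 250 CPM per kb and the small rRNA, MT-RNR1, 485 ± 114. MT-ND5 (1862 ± 302) and MT-ND6 (1642 ± 202), subunits of NADH dehydrogenase (complex I), were the lowest of the mRNAs and did not differ beyond their SD. The least represented tRNA genes were MT-TV, at 25.8 ± 6.18, and MT-TF, at 21.7 ± 2.37 CPM per kb. In A2780cis MT-TC (7536 ± 754.2), MT-CO1 (7436 ± 498) and MT-CO3 (7418 ± 821) led and did not differ beyond their SD, and MT-TW was last with 29.3 ± 1.66. The 13 mRNAs stayed within a narrow band in each of the 8 groups, the highest level per kb being 5.41 to 8.11 times the lowest. How far the kit removes mitochondrial rRNA is not given in the sources used here. The rRNA levels are therefore compared between groups and not ranked with the mRNAs.

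**Figure D1:**
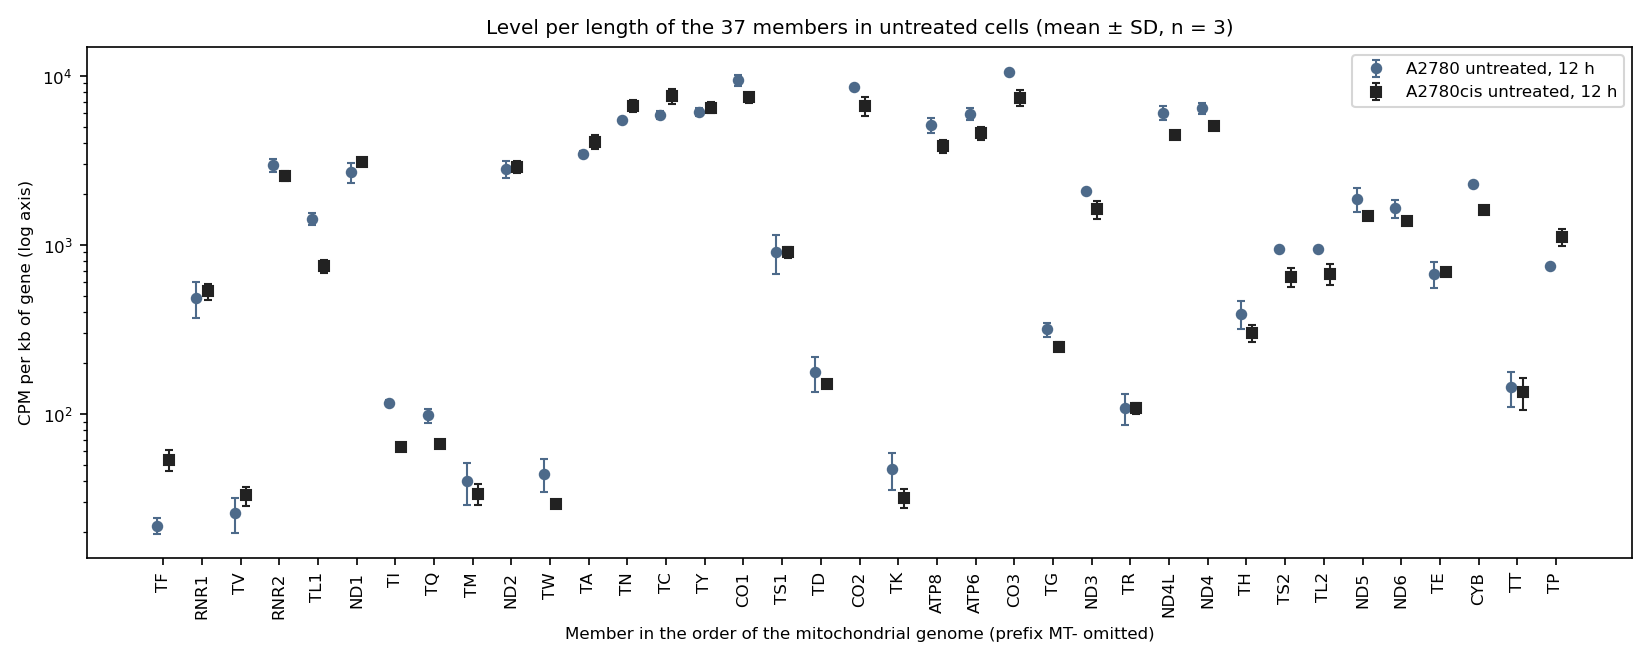
Level of each of the 37 members in untreated cells at 12 h, in CPM per kb of gene on a log axis, in the order of the mitochondrial genome (mean ± SD, n = 3; circles A2780, squares A2780cis). The mRNAs sit within a narrow band, and of the tRNAs MT-TA, MT-TN, MT-TC and MT-TY reach that band. Division by the short tRNA lengths raises the tRNA values beside the mRNAs.

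The share of all counts that fell on the mitochondrial genome was higher in treated than in untreated libraries, with no overlap, in both lines at both times (a sum over the members, given without a test). In A2780cis at 12 h it was 5.22% ± 0.185 (SD, n = 3) in untreated and 9.36% ± 0.577 in treated libraries. In A2780 at 12 h the shares were 6.43% ± 0.115 and 8.63% ± 0.273. At 6 h they were 6.16% ± 0.279 and 7.14% ± 0.180 in A2780, and 6.04% ± 0.176 and 7.45% ± 0.240 in A2780cis. By class at 12 h, the share of mRNA went from 4.56% to 7.75% (A2780cis) and from 5.73% to 7.40% (A2780), and that of rRNA from 0.448% to 1.25% and from 0.507% to 0.952%. At 6 h the mRNA share went from 5.08% to 6.21% (A2780cis) and from 5.24% to 6.25% (A2780). That of rRNA went from 0.692% to 0.950% and from 0.706% to 0.643%. Counts on the tRNA genes differed by annotated strand, although the strand of the reads themselves is not known. At 12 h the 8 minus-strand tRNAs went from 0.187% to 0.343% in A2780cis and from 0.159% to 0.242% in A2780. Most of this sum was the block of MT-TA, MT-TN, MT-TC and MT-TY, which went from 0.168% to 0.305% and from 0.142% to 0.215%. The 14 plus-strand tRNAs stood at 0.0222% and 0.0241% in A2780cis and at 0.0326% and 0.0295% in A2780. More mitochondrial RNA per cell and less of other RNA per cell cannot be told apart in these libraries.

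**Figure D2:**
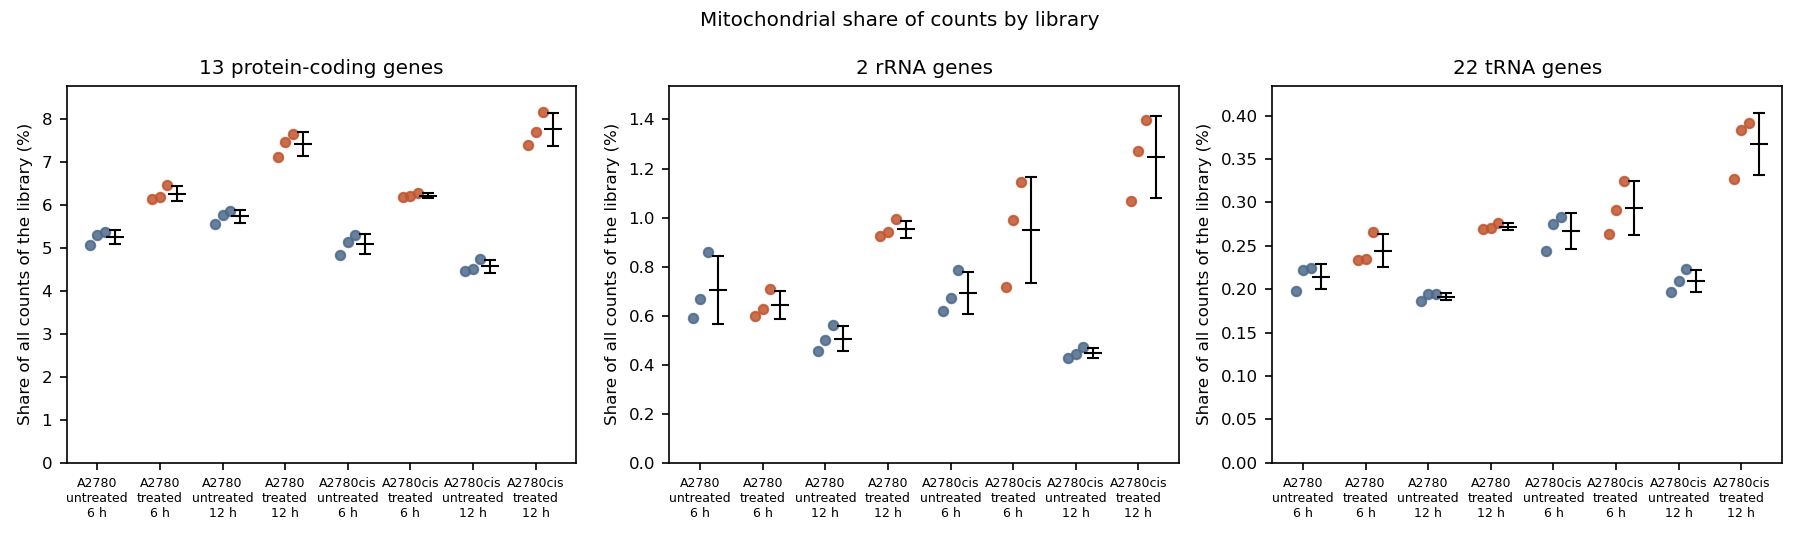
Share of all counts of a library (%) on the 13 mRNA, 2 rRNA and 22 tRNA genes of the mitochondrial genome, 1 point per library, with mean ± SD (n = 3) beside the points. Blue marks untreated and orange treated libraries, and the treated A2780cis libraries at 12 h have the highest mean in all 3 panels.

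Gene by gene, treated were compared with untreated libraries by the quasi-likelihood test of edgeR on TMM-normalised counts, adjusted by Benjamini-Hochberg over the 20240 genes tested. A call is an adjusted p of at most 0.05, and per-library values are TMM-normalised CPM in the order of replicates 1, 2 and 3. Counts of members at an unadjusted p or by DESeq2 are given without the share over all genes. They show only how the number of members depends on the rule. Scaling moved whole comparisons. With scaling by library size in place of TMM the median log2 FC of all genes went from 0.04 to 0.10 in A2780 at 6 h, from 0.02 to 0.24 in A2780 at 12 h, from 0.00 to 0.10 in A2780cis at 6 h and from 0.04 to 0.15 in A2780cis at 12 h. Below, each class is therefore set beside the median of all genes under the same scaling.

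In A2780cis at 12 h most members were up-regulated. Of the 37 members 28 rose and 5 fell, beside 31.0% and 28.9% of all genes tested. All 13 mRNAs rose, with a median log2 FC of 0.58 (all genes 0.04), and they rose under library size scaling as well, with a median of 0.69 (all genes 0.15). The 7 complex I subunits had a median of 0.55, the 3 complex IV subunits 0.79 and the 2 ATP synthase subunits, MT-ATP6 and MT-ATP8, 0.62. Both rRNAs and 7 of the 8 minus-strand tRNAs rose, whereas the 14 plus-strand tRNAs split into 6 that rose, 5 that fell and 3 that were not called.

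The mRNA of MT-CO1, the catalytic subunit of complex IV (chrM:5904-7445, plus strand), was at 12353, 11025 and 11019.7 CPM in untreated and 21188, 17538 and 20693 CPM in treated A2780cis libraries. Its log2 FC was 0.79 (SE 0.10, adjusted p = 2.42e-07). MT-CO3, a core subunit of the same complex, went from 6559.5, 5439.7 and 5449 to 11399, 8137 and 11084 CPM (log2 FC 0.81, SE 0.12, adjusted p = 2.3e-06). In both genes every treated library exceeded every untreated one, and treated replicate 2 was the lowest of the treated libraries. MT-ATP6, which forms part of the proton channel of ATP synthase, went from 3434, 2903 and 2987 to 5309, 4286 and 5075 CPM (log2 FC 0.65, adjusted p = 4.55e-06). MT-CYB, cytochrome b of complex III (chrM:14747-15887), went from 1957, 1766 and 1795 to 2809, 2326 and 2835 CPM (log2 FC 0.53, SE 0.09, adjusted p = 3.13e-05). These groups did not overlap either. Counts on MT-ND6, the one mRNA gene of the minus strand, rose from 703, 742 and 719 to 1324, 966 and 1148 CPM (log2 FC 0.67, adjusted p = 2.25e-05). Reads of plus-strand RNA through this gene cannot be told apart from its own, so a rise of minus-strand mRNA is not shown by these counts alone. The smallest mRNA change was that of MT-ND5, whose libraries were at 2552, 2749 and 2698 CPM untreated and 3847, 3646 and 2667 CPM treated (log2 FC 0.35, SE 0.14, adjusted p = 0.0325). Its groups overlapped, since treated replicate 3 was at the untreated level. The MT-ND5 call was lost without any 1 untreated library (adjusted p = 0.0976, 0.0591 and 0.0655) and without treated replicate 1 (0.222) or treated replicate 2 (0.102).

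Both rRNAs of the mitochondrial ribosome rose in A2780cis at 12 h. Uneven removal of rRNA between libraries was not tested. MT-RNR2 (chrM:1671-3229) was at 4271, 3924 and 3765 CPM in untreated and 12095, 8307 and 10844 CPM in treated A2780cis libraries at 12 h (log2 FC 1.39, SE 0.16, adjusted p = 7.05e-08). MT-RNR1 (chrM:648-1601) was at 568, 485 and 462 CPM and at 1444, 986 and 1385 CPM (log2 FC 1.33, SE 0.25, adjusted p = 5.5e-05). Neither rRNA overlapped between groups. The tRNA gene between them, MT-TV (valine), went from 2.50, 2.36 and 1.94 to 7.11, 5.05 and 4.74 CPM (log2 FC 1.30, SE 0.19, adjusted p = 2.53e-06). MT-TF (phenylalanine), just upstream of MT-RNR1, went from 4.33, 3.82 and 3.24 to 9.02, 7.92 and 9.85 CPM (log2 FC 1.23, adjusted p = 1.73e-05). So the 4 genes at the start of the plus strand rose together in this comparison, although the tRNAs among them had only a few CPM.

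On the minus strand, MT-TY went from 460.3, 423 and 397 to 838, 631 and 705 CPM (log2 FC 0.76, adjusted p = 1.74e-06). MT-TE (glutamate), next to MT-ND6, went from 47.1, 48.4 and 46.7 to 91.5, 67.9 and 92.8 CPM (log2 FC 0.83, adjusted p = 2.83e-06). MT-TP (proline), the last gene of the genome as numbered, went from 85.2, 71.6 and 69.0 to 152, 112 and 147 CPM (log2 FC 0.86, adjusted p = 4.58e-06). None of these overlapped between groups, and the minus-strand tRNAs as a class had a median log2 FC of 0.77. MT-TI (isoleucine), a plus-strand tRNA, had a log2 FC of 0.62 (adjusted p = 0.0162), which was not called without treated replicate 1 (0.52, adjusted p = 0.0778) or treated replicate 3 (0.46, adjusted p = 0.114).

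The 5 members that fell in A2780cis at 12 h were the plus-strand tRNAs MT-TR, MT-TH, MT-TS2, MT-TL2 and MT-TG. MT-TR went from 7.66, 6.74 and 6.69 to 4.001, 4.42 and 2.56 CPM (log2 FC -0.94, SE 0.22, adjusted p = 0.000767). MT-TH went from 23.3, 20.7 and 18.3 to 14.9, 11.7 and 15.2 CPM (log2 FC -0.58, SE 0.14, adjusted p = 0.00114). MT-TS2 went from 43.5, 36.3 and 34.5 to 22.7, 24.6 and 29.7 CPM (log2 FC -0.57, SE 0.14, adjusted p = 0.00134). All treated libraries lay below all untreated ones in these 3 genes. MT-TL2 fell likewise, from 55.8, 45.1 and 43.0 to 27.7, 32.1 and 35.5 CPM (log2 FC -0.60, adjusted p = 0.00143). MT-TG went from 18.2, 16.0 and 16.8 to 15.4, 11.4 and 7.23 CPM (log2 FC -0.59, SE 0.19, adjusted p = 0.00828), a call that was lost without treated replicate 3 (log2 FC -0.38, adjusted p = 0.07). All 5 kept the negative sign under library size scaling, where 28 members rose and 5 fell as under TMM. Of the 20240 genes tested 7219 rose and 5052 fell under that scaling.

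In A2780 at 12 h the response was mixed. Of the 37 members 11 rose and 7 fell, beside 28.6% and 26.1% of all genes tested. Of the 13 mRNAs 2 rose, MT-CO1 and MT-ND6, and 1 fell, MT-CYB, with a median log2 FC of 0.09 (all genes 0.02). Under library size scaling 21 members rose and 3 fell, beside 8084 and 3349 of the 20240 genes tested. Of the mRNAs 9 rose and 0 fell under that scaling, with a median of 0.31 beside an all-gene median of 0.24. Under TMM 7 members rose without untreated replicate 1, and 4 fell without treated replicate 3.

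MT-CO1 was at 15258, 15015 and 13291 CPM in untreated and 19555, 18561 and 16901 CPM in treated A2780 libraries at 12 h (log2 FC 0.34, SE 0.10, adjusted p = 0.00604). Without untreated replicate 3 the adjusted p was 0.0509. MT-CYB moved the other way, from 2586, 2698 and 2524 to 2357, 2229 and 1952 CPM (log2 FC -0.26, SE 0.09, adjusted p = 0.0244). Neither gene overlapped between groups. The MT-CYB call was lost without untreated replicate 2 (adjusted p = 0.0797), without treated replicate 3 (log2 FC -0.19, adjusted p = 0.13) and under library size scaling (log2 FC -0.04, adjusted p = 0.668). MT-ND6 went from 769, 841 and 977 to 1103, 1063 and 979 CPM (log2 FC 0.28, adjusted p = 0.042), and was not called without untreated replicate 1 (0.239) or 2 (0.117) or without treated replicate 1 (0.143) or 2 (0.098). MT-CO3 was at 8481, 8071 and 8009 CPM untreated and 9529.9, 8649.8 and 8637 CPM treated, with a log2 FC of 0.13 (adjusted p = 0.384).

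MT-RNR2 rose in A2780 as well, from 4271, 4526 and 5037 to 8061, 7346 and 7415 CPM (log2 FC 0.72, SE 0.16, adjusted p = 0.000497), with no overlap between groups. MT-RNR1 was at 337, 530.3 and 520.1 CPM untreated and 799, 507 and 466 CPM treated, with overlapping groups (log2 FC 0.35, adjusted p = 0.233). Of the minus-strand tRNAs 7 of 8 rose and 0 fell, with a median log2 FC of 0.42. Among the 7, the MT-TY call was kept in 0 of the 6 refits without a library, and the MT-TS1 call in 3. MT-TP went from 50.7, 49.6 and 52.1 to 84.3, 78.4 and 74.4 CPM (log2 FC 0.64, adjusted p = 0.0003). MT-TE went from 39.8, 44.1 and 55.0 to 60.5, 67.4 and 65.2 CPM (log2 FC 0.47, adjusted p = 0.00219). MT-TC went from 408, 373 and 377 to 542, 503 and 522 CPM (log2 FC 0.44, adjusted p = 0.00513). All 3 were higher in every treated than in every untreated library.

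Of the 14 plus-strand tRNAs 6 fell and 1 rose in A2780 at 12 h (median log2 FC -0.40). Under library size scaling 3 fell and 3 rose (median -0.17, all genes 0.24), so that the class was no longer called mostly lower. MT-TH went from 23.8, 24.3 and 32.9 to 17.3, 14.6 and 14.96 CPM (log2 FC -0.80, adjusted p = 3.22e-05). MT-TS2 went from 56.1, 55.1 and 54.9 to 46.8, 31.4 and 31.8 CPM (log2 FC -0.60, adjusted p = 0.000814). MT-TG went from 21.3, 19.5 and 23.6 to 15.6, 10.4 and 12.2 CPM (log2 FC -0.76, adjusted p = 0.000937). These 3 did not overlap between groups and were called under each alternative run. MT-TL2 went from 68.8, 66.5 and 64.5 to 58.7, 40.2 and 39.8 CPM (log2 FC -0.53), and was not called under library size scaling (-0.31, adjusted p = 0.0706). MT-TR was at 6.34, 6.02 and 8.74 CPM untreated and 6.38, 3.81 and 6.12 CPM treated, with overlapping groups (log2 FC -0.39, adjusted p = 0.128). MT-TW and MT-TK, outside the group of 5, were also called lower. Their calls were kept in 4 and 3 of the 6 refits without a library. The member that rose was MT-TF, from 1.45, 1.74 and 1.44 to 2.52, 2.35 and 2.82 CPM (log2 FC 0.73, adjusted p = 0.0218). Its call was lost without untreated replicate 1 (adjusted p = 0.0661), untreated replicate 3 (0.0735) or treated replicate 3 (0.0763).

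The responses of the lines at 12 h differed in 17 members, beside 23.7% of all genes tested in either direction, and in each of the 17 the log2 FC was higher in A2780cis. They were 9 mRNAs, both rRNAs and 6 tRNAs. MT-CYB had the smallest adjusted p (difference in log2 FC 0.79, SE 0.13, adjusted p = 0.000163), followed by MT-ATP6 (0.63, SE 0.14, adjusted p = 0.00257) and MT-CO3 (0.68, SE 0.17, adjusted p = 0.00466). MT-RNR2 differed by 0.66 (adjusted p = 0.0357) and MT-RNR1 by 0.98 (adjusted p = 0.0417), and both rRNA calls were lost when single libraries were left out, at adjusted p of up to 0.106 without treated A2780cis replicate 1 for MT-RNR2 and up to 0.104 without treated A2780 replicate 3 for MT-RNR1. The 17 became 11 without treated A2780 replicate 3, 8 without untreated A2780cis replicate 2, 9 without untreated A2780cis replicate 3 and 7 without treated A2780cis replicate 1. Of the 5 plus-strand tRNAs with lower counts, 0 differed between the lines (median difference 0.03, all genes -0.04). These 5 were singled out after their values were seen, so that count is not independent of the choice. At unadjusted p under 0.05 the difference was found in 22 of the 37 members, and DESeq2 called 15.

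The untreated A2780cis libraries at 12 h enter this comparison, and they were lower than untreated A2780 in most mRNAs (below). In the treated libraries at 12 h the lines overlapped in MT-CO1, at 16901 to 19555 CPM in A2780 and 17538 to 21188 CPM in A2780cis. For MT-CYB they overlapped too, at 1952 to 2357 and 2326 to 2835 CPM. MT-RNR2 was higher in every treated A2780cis library (8307 to 12095 CPM) than in every treated A2780 library (7346 to 8061 CPM). These treated levels are given as values, since no test between treated lines was part of the design.

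At 6 h few mRNAs were called under TMM. In A2780 2 members rose and 9 fell, beside 16.0% and 13.4% of all genes tested. The 2 that rose were the overlapping genes MT-ATP6, from 3423, 3472 and 3277 to 4053, 4548 and 3950.5 CPM (log2 FC 0.30, adjusted p = 0.0255), and MT-ATP8, from 961, 939 and 851 to 1091, 1166 and 1075 CPM (log2 FC 0.28, adjusted p = 0.0465). Their groups did not overlap. MT-ATP8 was not called without any 1 of the 6 libraries (adjusted p = 0.0629 to 0.161), and MT-ATP6 was not called without untreated replicate 1 (0.0701), untreated replicate 3 (0.078) or treated replicate 2 (0.135). With library size scaling 10 members rose, 7 of them mRNAs, and 8 fell. Of the 20240 genes tested 3855 rose and 2195 fell under that scaling.

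All 9 members that fell in A2780 at 6 h were plus-strand tRNAs, which as a class had a median log2 FC of -0.72 (all genes 0.04), while the 8 minus-strand tRNAs had a median of 0.22 with none called. At an unadjusted p under 0.05, 17 of the 37 members differed, and DESeq2 called 9. MT-TS2 went from 71.9, 58.8 and 54.2 to 31.4, 30.9 and 38.9 CPM (log2 FC -0.87, adjusted p = 6.88e-05). MT-TH went from 32.2, 28.1 and 29.6 to 16.2, 14.3 and 18.7 CPM (log2 FC -0.87, adjusted p = 7.08e-05). MT-TL2 went from 87.0, 61.7 and 64.4 to 39.0, 37.9 and 43.7 CPM (log2 FC -0.82, adjusted p = 0.000225). The highest treated library lay well below the lowest untreated one in each. MT-TG went from 29.2, 26.4 and 24.6 to 15.2, 12.8 and 13.8 CPM (log2 FC -0.94, adjusted p = 0.000469), and MT-TR from 11.9, 8.70 and 7.73 to 2.81, 4.72 and 5.04 CPM (log2 FC -1.18, SE 0.23, adjusted p = 0.000411). These 5 kept their call in every alternative run. The other 4 were MT-TF (-1.04), MT-TW (tryptophan, -0.89), MT-TV (-0.62) and MT-TK (lysine, -0.60), each with at most 6.53 CPM in any library of either group, and without untreated replicate 2 only 5 members fell.

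In A2780cis at 6 h 3 members rose and 3 fell, beside 14.4% and 16.3% of all genes tested. MT-CO1 went from 15543, 13714 and 13965 to 17948, 17722 and 17060.1 CPM (log2 FC 0.29, adjusted p = 0.031). This call held without untreated replicate 1 and was lost without any other of the 6 libraries (adjusted p = 0.0652 to 0.11). MT-TS1 (serine, minus strand, next to MT-CO1) went from 49.7, 45.3 and 59.8 to 89.9, 75.0 and 68.2 CPM (log2 FC 0.59, adjusted p = 0.0136). The MT-TS1 call was lost without untreated replicate 2 (0.0757) or treated replicate 1 (0.07). Neither gene overlapped between groups. MT-RNR1 was at 828, 733 and 1106 CPM untreated and 1472, 2164 and 828 CPM treated (log2 FC 0.74, adjusted p = 0.0235), with overlapping groups. The MT-RNR1 call was lost without treated replicate 2 (0.37, adjusted p = 0.29) and without untreated replicate 1 (adjusted p = 0.0762) or 2 (0.116). Only 1 member rose without untreated replicate 2, treated replicate 1 or treated replicate 2.

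The 3 that fell in A2780cis at 6 h were again among the plus-strand tRNAs. MT-TH went from 22.9, 22.4 and 27.6 to 16.3, 18.4 and 14.5 CPM (log2 FC -0.57, adjusted p = 0.00373). MT-TG went from 14.6, 17.2 and 22.5 to 10.8, 13.2 and 12.2 CPM (log2 FC -0.59, adjusted p = 0.0205). MT-TR went from 8.50, 7.82 and 7.20 to 5.58, 4.89 and 4.48 CPM (log2 FC -0.66, adjusted p = 0.0275). The groups did not overlap in these genes. The MT-TH call held without each of the 6 libraries in turn. That of MT-TG was lost without untreated replicate 3 (0.166), treated replicate 1 (0.0688) or treated replicate 3 (0.0562), and that of MT-TR without untreated replicate 1 (0.0862) or 2 (0.0633) or treated replicate 2 (0.0677) or 3 (0.111). Under library size scaling neither MT-TG (adjusted p = 0.0598) nor MT-TR (0.0705) was called. MT-TS2 (-0.34, adjusted p = 0.0759) and MT-TL2 (-0.35, adjusted p = 0.0902) were not called. Without treated replicate 3 only 1 member fell, and under library size scaling 11 rose (7 mRNAs) and 1 fell. Of the 20240 genes tested 3782 rose and 2373 fell under that scaling. The difference between the lines at 6 h was called in 0 of 37 members, beside 3.07% of all genes tested, with 7 at an unadjusted p under 0.05 and 1 called by DESeq2.

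Ratios of counts within a library do not depend on scaling between libraries, and were given without a test because the genes were singled out after their values were seen. The counts of MT-TH, MT-TS2 and MT-TL2 together, for every 1000 counts of the flanking genes MT-ND4 and MT-ND5, were 16.8 ± 3.25 (SD, n = 3) in untreated and 7.84 ± 1.12 in treated A2780 libraries at 6 h. At 12 h they were 12.2 ± 0.630 and 7.47 ± 1.54. In A2780cis they were 10.8 ± 3.08 and 6.93 ± 0.635 at 6 h and 11.1 ± 1.40 and 5.26 ± 0.933 at 12 h. Treated and untreated libraries did not overlap in any of the 4 pairs of groups, the narrowest gap being in A2780cis at 6 h (lowest untreated 7.94, highest treated 7.58).

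MT-TG for every 1000 counts of MT-CO3 and MT-ND3 showed the same order, from 2.65 to 1.35 and from 2.41 to 1.31 in A2780, and from 1.95 to 1.19 and from 2.68 to 1.04 in A2780cis, at 6 h and 12 h. MT-TR for every 1000 counts of MT-ND3 and MT-ND4L went from 4.01 to 1.64 in A2780 at 6 h and from 3.72 to 1.34 in A2780cis at 12 h, with no overlap. In A2780 at 12 h it was 2.82 and 2.24 with overlapping libraries. By contrast, the minus-strand block of MT-TA, MT-TN, MT-TC and MT-TY held its ratio to MT-ND2 and MT-CO1, at 82.1 ± 5.05 and 87.6 ± 6.05 in A2780 and 116.6 ± 4.25 and 117.6 ± 6.12 in A2780cis at 12 h, differences smaller than the SD or close to it. At 6 h it was 99.3 ± 4.47 and 99.4 ± 9.97 in A2780, and in A2780cis 138.4 ± 10.96 untreated and 118.9 ± 12.99 treated, with overlapping libraries.

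Other members shifted against each other as well. MT-CYB for every 1000 counts of MT-CO1 went from 179.7 ± 10.2 to 118.7 ± 2.78 in A2780 at 12 h, and from 160.5 ± 2.24 to 134.1 ± 2.53 in A2780cis. Libraries of treated and untreated cells did not overlap, so both lines had less MT-CYB per MT-CO1 after 12 h although the MT-CYB level itself rose in A2780cis. At 6 h A2780 had 176.5 ± 0.664 untreated and 155.5 ± 3.63 treated, and A2780cis had 167.7 ± 6.89 and 160.1 ± 0.729. MT-RNR2 for every 1000 counts of the 13 mRNAs stood at 80.5 ± 9.57 untreated and 119.6 ± 5.82 treated in A2780 at 12 h. In A2780cis it stood at 87.2 ± 2.20 and 143.1 ± 12.5, again without overlap. Uneven removal of rRNA by the kit cannot be told apart from a change in ratios that use an rRNA. Within treated A2780cis at 6 h the same ratio for MT-RNR1 ran from 12.9 to 33.2. MT-TL1 (leucine), which directly follows MT-RNR2, went from 23.2 to 12.7 for every 1000 counts of MT-RNR2 in A2780 and from 14.1 to 7.47 in A2780cis at 12 h. MT-ND6 for every 1000 counts of MT-ND5, which lies beside it on the other strand, was 256.6 ± 10.0 and 281.2 ± 22.9 in A2780 and 270.6 ± 4.59 and 346.5 ± 82.8 in A2780cis at 12 h, with overlap in both lines.

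**Figure D3:**
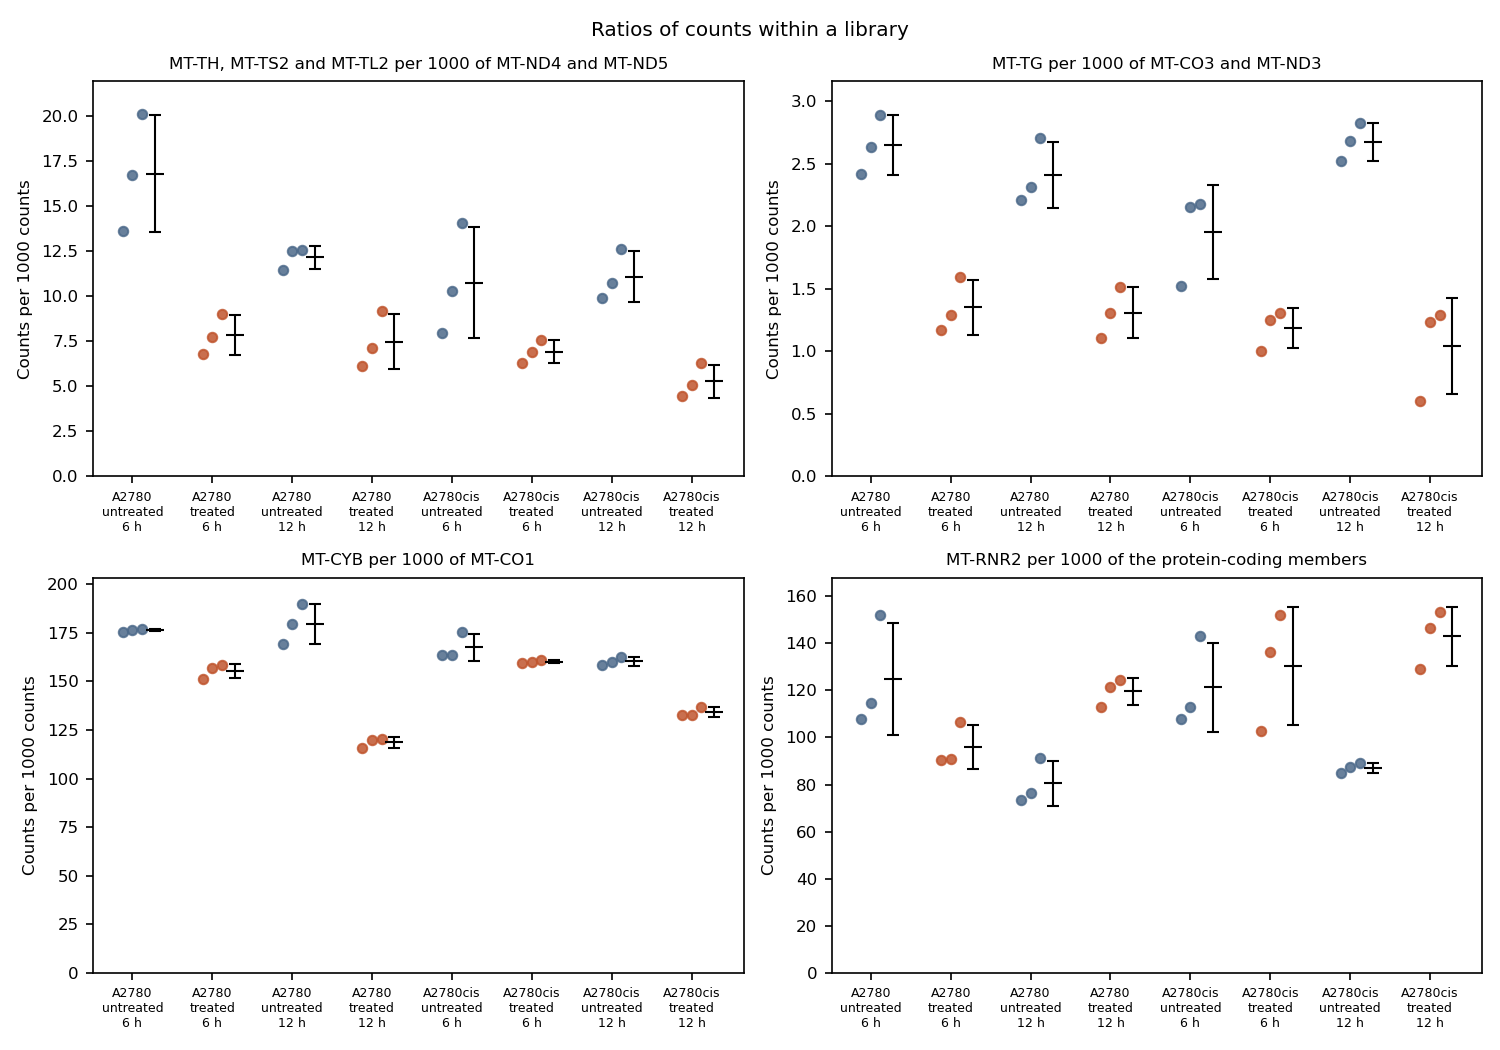
Ratios of counts within a library in the 8 groups, 1 point per library with mean ± SD (n = 3) beside the points, blue for untreated and orange for treated libraries, each axis in counts per 1000 counts. The ratio of MT-TH, MT-TS2 and MT-TL2 to MT-ND4 and MT-ND5, and that of MT-CYB to MT-CO1, are lower in treated than in untreated libraries in every pair.

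The untreated lines were compared at each time, A2780cis against A2780. These comparisons share their untreated libraries with the treatment comparisons, so their values are given side by side and are not independent. At 6 h 13 members were higher and 7 lower in A2780cis, beside 25% and 22.9% of all genes tested. The minus-strand tRNAs accounted for 7 of the 13, and of the mRNAs only MT-ND1 (log2 FC 0.38) and MT-ND2 (0.48) were called, both higher. With library size scaling 2 mRNAs were higher and 2 lower, beside 4135 and 5445 of the 20240 genes tested. MT-TC was at 439, 513 and 421 CPM in A2780 and 814, 666 and 751.4 CPM in A2780cis (log2 FC 0.70). MT-TF (1.37) and MT-TP (0.75) were higher, and MT-TL1 (-0.64), MT-TS2 (-0.68), MT-TL2 (-0.62) and MT-TI (-0.81) lower. MT-RNR1 was higher in A2780cis (0.74, adjusted p = 0.0151), but not called without untreated A2780 replicate 3 (adjusted p = 0.0721) or untreated A2780cis replicate 3 (0.101). Without untreated A2780cis replicate 1 the number lower was 4.

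At 12 h the picture in the mRNAs was another one. Of the 37 members 3 were higher and 17 lower in untreated A2780cis, beside 25.4% and 27.5% of all genes tested. Of the 13 mRNAs 10 were lower and 0 higher, with a median log2 FC of -0.37 (all genes -0.01). MT-CYB (-0.50, adjusted p = 7.2e-05) and MT-CO3 (-0.49, adjusted p = 0.00107) were among them. MT-TL1 had the smallest adjusted p, at 97.7, 114 and 109.6 CPM in A2780 and 51.7, 61.5 and 54.3 CPM in A2780cis (log2 FC -0.94, adjusted p = 1.23e-07). The groups did not overlap. The 3 that were higher were MT-TF, at 1.45, 1.74 and 1.44 against 4.33, 3.82 and 3.24 CPM (log2 FC 1.30, adjusted p = 9.79e-05), MT-TP (0.57) and MT-TC (0.37). MT-TC was not called without untreated A2780 replicate 2 (adjusted p = 0.0589) or 3 (0.0513) or untreated A2780cis replicate 1 (0.0821). The number lower was 11 without untreated A2780cis replicate 2 and 10 without untreated A2780cis replicate 3.

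Untreated cells also differed between the times. In A2780cis 21 members were lower and 0 higher at 12 h than at 6 h, beside 21.9% and 18.0% of all genes tested, with 23 at an unadjusted p under 0.05 and 20 called by DESeq2. Under library size scaling 13 were lower and 0 higher, with the all-gene median going from -0.09 to 0.06. Of the 20240 genes tested 1598 were lower and 4686 higher under that scaling. Of the 13 mRNAs 8 were lower (median log2 FC -0.33), against 4 under library size scaling (median -0.16). Both rRNAs were lower under both scalings. MT-RNR2 went from 6672, 6134 and 7985 to 4271, 3924 and 3765 CPM (log2 FC -0.80, adjusted p = 0.000551) and MT-CO3 from 8786, 7333 and 9347 to 6559.5, 5439.7 and 5449 CPM (log2 FC -0.55, adjusted p = 0.00103). MT-TY went from 688, 589 and 632 to 460.3, 423 and 397 CPM (log2 FC -0.58, adjusted p = 0.000339). No library at 12 h reached the lowest at 6 h in these 3 genes. Without untreated replicate 3 of 12 h 13 members were lower.

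In untreated A2780 3 members were higher and 8 lower at 12 h than at 6 h, beside 16.6% and 10.3% of all genes tested. MT-RNR2 was lower, at 6349, 8914 and 5561 CPM at 6 h and 4271, 4526 and 5037 CPM at 12 h (log2 FC -0.59, adjusted p = 0.0102), but not called without replicate 2 of 6 h (adjusted p = 0.102). The 3 higher members were MT-TS1 (1.00), MT-TD (aspartate, 0.83) and MT-ND4 (0.37). MT-TD was not called without replicate 1 of 6 h (adjusted p = 0.0724) or replicate 3 of 12 h (0.0922), and MT-ND4 not without replicate 1 (0.0897) or 3 (0.0761) of 6 h or replicate 2 of 12 h (0.0738). The count of lower members rested on single libraries, at 1 without replicate 1 and 0 without replicate 2 of 6 h, and at 5, 3 and 2 without replicates 1, 2 and 3 of 12 h, and the count of higher members was 1 without replicate 1 of 6 h.

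The response to treatment differed between 6 h and 12 h in 17 members in A2780cis, beside 24% of all genes tested in either direction, and in 4 members in A2780, beside 23.7%. In each of these members the log2 FC was higher at 12 h. In A2780cis they were 7 mRNAs, 1 rRNA and 9 tRNAs, led by MT-TE (difference 1.01, adjusted p = 0.000217), MT-RNR2 (1.08, adjusted p = 0.00134) and MT-TV (1.24, adjusted p = 0.00206). MT-TE was at 52.3, 74.2 and 67.7 CPM untreated and 59.4, 52.9 and 58.6 CPM treated at 6 h, where the groups overlapped. In A2780 the 4 were MT-TF (1.77, SE 0.40, adjusted p = 0.00235), MT-RNR2 (0.93, adjusted p = 0.00454), MT-TP (0.75, adjusted p = 0.00671) and MT-TV (1.04, adjusted p = 0.0206), the last of them outside the rule for named genes. The MT-TV call in A2780 was lost without untreated replicate 2 (adjusted p = 0.0633) or treated replicate 1 (0.0575) of 6 h, or without untreated replicate 1 (0.0508), untreated replicate 2 (0.0513) or treated replicate 3 (0.0562) of 12 h. Of the 5 plus-strand tRNAs with lower counts 0 differed between the times in either line. The untreated libraries of both times enter these comparisons. Among untreated libraries 21 members were lower and 0 higher at 12 h in A2780cis, and 8 lower and 3 higher in A2780. MT-TV was lower by this measure in A2780cis (-1.07), and MT-RNR2 in both lines (-0.80 in A2780cis, -0.59 in A2780). How much of each difference came from untreated cells was not tested.

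Nuclear genes that serve the mitochondrial genome were read from lists fixed for this description. Among 76 nuclear-encoded subunits of the oxidative phosphorylation complexes, 52 rose and 2 fell in A2780cis at 12 h (median log2 FC 0.59), against 4 that rose and 16 that fell in A2780 (median -0.03). Of all genes tested 31.0% rose and 28.9% fell in A2780cis, and 28.6% and 26.1% in A2780. In A2780cis NDUFB1 (0.99) and NDUFC1 (0.70), both of complex I, and SDHC (0.62), of succinate dehydrogenase, rose, and CYC1 (-0.36), of complex III, and NDUFB10 (-0.27), of complex I, fell. In A2780 SDHA (0.52), COX6C (0.46) and NDUFB1 (0.46) rose, whereas NDUFB10 (-0.66), SDHB (-0.66) and ATP5F1A (-0.57) fell. Under library size scaling the counts were 58 and 0 in A2780cis (median 0.69), beside 7219 and 5052 of the 20240 genes tested. In A2780 they were 28 and 8, beside 8084 and 3349, and the median of 0.20 lay below the all-gene median of 0.24. At 6 h 13 rose and 1 fell in A2780cis, beside 14.4% and 16.3% of all genes tested. In A2780 7 rose and 1 fell at 6 h, beside 16.0% and 13.4%. In untreated cells at 12 h 6 of the 76 were higher and 34 lower in A2780cis than in A2780 (median -0.26). Of all genes tested 25.4% were higher and 27.5% lower in that comparison.

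Of 9 genes of mitochondrial transcription 3 rose and 3 fell in each line at 12 h, close to the shares of all genes tested (28.6% and 26.1% in A2780, 31.0% and 28.9% in A2780cis). With scaling by library size 5 rose and 3 fell in A2780, beside 8084 and 3349 of the 20240 genes tested. POLRMT, the RNA polymerase of the organelle, fell by 0.81 on the log2 scale in A2780 (adjusted p = 0.00326) and by 0.89 in A2780cis (adjusted p = 0.001). TFB2M, which opens the promoter, had a log2 FC of -0.85 and -0.77, and TFB1M, an rRNA methyltransferase, -0.54 and -0.64. TFAM, which binds and packages the DNA, had a log2 FC of -0.00 (adjusted p = 0.989) in A2780 and rose by 0.31 in A2780cis (adjusted p = 0.0313). TEFM, the elongation factor, had 0.26 (adjusted p = 0.093) and 0.11 (adjusted p = 0.503). MTERF1 (0.45 and 0.33) and MTERF2 (0.77 and 0.35), of the transcription terminator family, rose in both lines. At 6 h 2 of the 9 fell and 0 rose in A2780, beside 13.4% and 16.0% of all genes tested. In A2780cis 3 fell and 1 rose at 6 h, beside 16.3% and 14.4%.

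Of 30 genes of mitochondrial RNA processing and decay 4 rose and 16 fell in A2780 at 12 h (median -0.33), and 7 rose and 18 fell in A2780cis (median -0.42), beside 26.1% and 28.9% of all genes that fell. Scaling by library size gave 6 that rose and 9 that fell in A2780 (median -0.11), beside 8084 and 3349 of the 20240 genes tested. LRPPRC, which stabilises mitochondrial mRNAs, was lower in both lines (log2 FC -1.20 and -0.68), as was GRSF1, an RNA-binding protein of mitochondrial RNA granules (-0.76 and -1.37). PNPT1, the polynucleotide phosphorylase of the degradosome, fell in A2780 (-1.02) and MTPAP, the mitochondrial poly(A) polymerase, fell in A2780cis (-1.03). REXO2, an oligoribonuclease, rose in both (0.65 and 0.53). At 6 h 3 rose and 9 fell in A2780, beside 16.0% and 13.4% of all genes tested. In A2780cis 2 rose and 11 fell at 6 h, beside 14.4% and 16.3%.

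Of 19 genes of mitochondrial DNA replication and maintenance 6 rose and 7 fell in A2780 and 4 rose and 10 fell in A2780cis at 12 h. The A2780 counts are near the 28.6% and 26.1% of all genes. They were 8 and 4 when scaled by library size, beside 8084 and 3349 of the 20240 genes tested. In A2780cis the all-gene shares under TMM were 31.0% and 28.9%. RRM2B, the p53-inducible ribonucleotide reductase subunit, rose by 1.88 and 1.41, and MGME1, a mitochondrial exonuclease, by 0.85 and 0.61. ATAD3A, an inner membrane protein of nucleoids, had a log2 FC of -2.04 and -2.12, and TOP1MT, the mitochondrial topoisomerase, -0.95 and -1.19. Of 8 regulators of mitochondrial biogenesis 7 fell in each line, beside the same all-gene shares, with 1 that rose in A2780, and among them NRF1 had -1.14 and -1.13 and PPARGC1B -1.31 and -2.03. At 6 h 4 of the 8 fell in each line, beside 13.4% of all genes tested in A2780 and 16.3% in A2780cis.

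**Figure D4:**
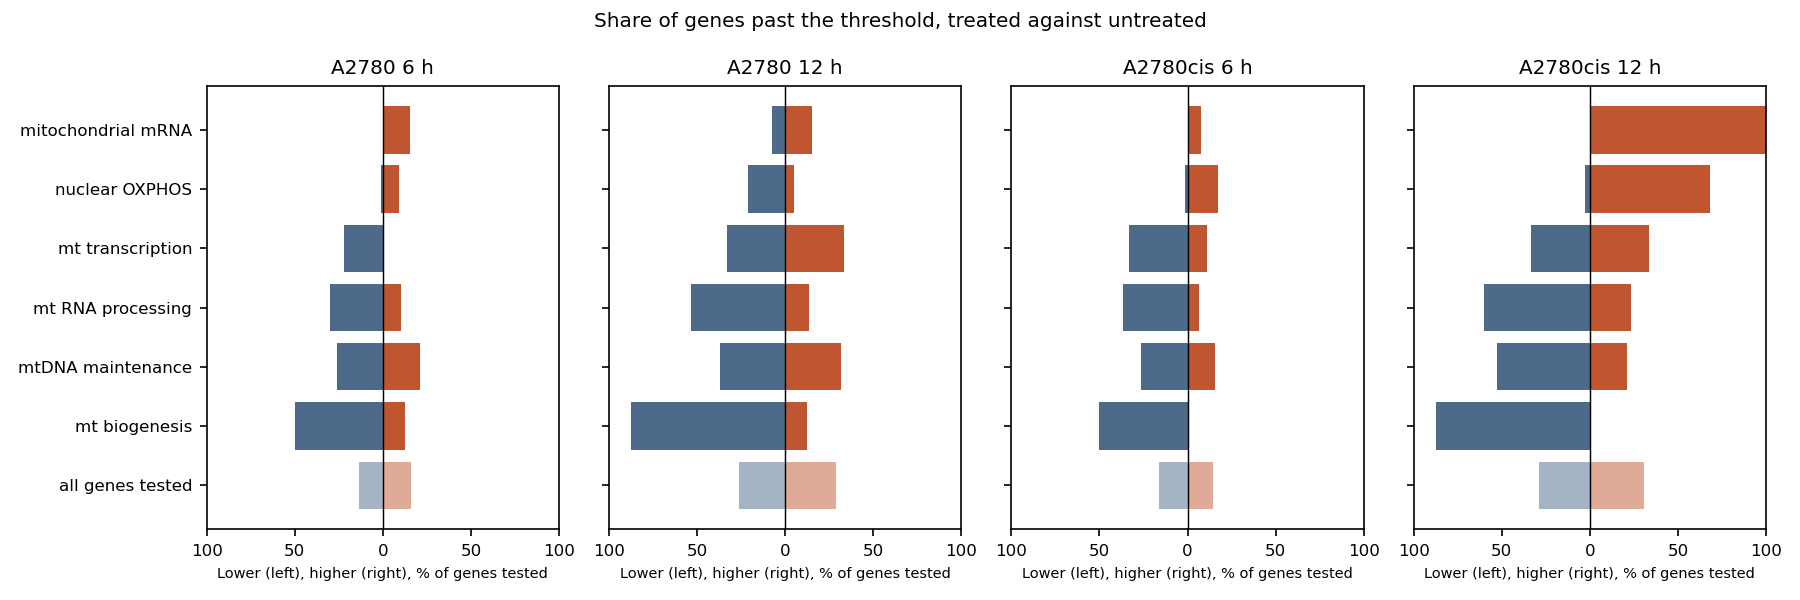
Share of genes (%) that fell (left of 0) and rose (right of 0) with treatment, for the 13 mitochondrial mRNAs, 5 lists of nuclear genes (OXPHOS, oxidative phosphorylation) and all 20240 genes tested, in both lines at both times. In A2780cis at 12 h all 13 mRNAs and 52 of 76 nuclear OXPHOS genes rose, while 7 of 8 biogenesis regulators fell in each line at 12 h.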

How the data were processed

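Total RNA was sequenced by the authors after TruSeq Stranded Total RNA library preparation. Per the labels, reads passed bcl2fastq and Trimmomatic, were aligned with STAR 2.5.2b to GRCh38.p7 and counted with featureCounts, with reads on several features counted for each and multimapping reads counted in fractions. The authors deposited 1 table of these expected counts for 63299 Ensembl genes, not normalised. Of these, 56993 matched GENCODE 44, which gave symbols, strand and coordinates.

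Expected counts were rounded to whole numbers. Genes passed filterByExpr of edgeR 4.0.16 (minimum count 10, minimum total 15), and 20240 were fitted with 1 coefficient per group in all 24 libraries (16 residual degrees of freedom) with limma 3.58.1 and R 4.3.3. The test was run on simulated data first. DESeq2 1.42.0, other scalings, no filter, unrounded counts, compared groups alone, the replicate block, leaving out each library and, added after the data were seen, counts of nuclear copies added to their gene were alternatives. The members and lists were chosen with earlier results of these data known. Any mRNA or rRNA could be named, and of the tRNAs, interactions and lists the 3 smallest p in each direction, with POLRMT, TFAM, TFB2M, TEFM and LRPPRC. Other tRNAs named, among them the group of 5, were chosen after their values were seen. Of the deposited values, 30.1% were multiples of 0.5 in the mRNAs and 74.2% in the tRNAs. Same-numbered replicates did not deviate together consistently, with correlations from -0.25 to 0.31.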

Additional observations from a re-analysis of the deposited data

Results flagged for a closer look

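Responses that differed between groups by a test of the difference itself (edgeR's quasi-likelihood test of an interaction, adjusted p at most 0.05) are listed here. Between the lines at 12 h 17 of the 37 members responded differently, beside 23.7% of all genes tested, each with the higher log2 FC in A2780cis. They were led by MT-CYB with a difference of 0.79, MT-ATP6 with 0.63 and MT-CO3 with 0.68. Between 6 h and 12 h in A2780 the response differed in 4 of the 37 members, a smaller share than the 23.7% of all genes tested. They were led by MT-TF with a difference of 1.77, MT-RNR2 with 0.93 and MT-TP with 0.75. Between the times in A2780cis the response differed in 17 of the 37 members, beside 24% of all genes tested. They were led by MT-TE with a difference of 1.01, MT-RNR2 with 1.08 and MT-TV with 1.24. In each member that differed between the times the log2 FC was higher at 12 h. Groups of 3 libraries were not tested for single outlying libraries.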

How the results depend on the processing

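Counts of members called in A2780cis at 12 h held within 1.5 times under every alternative run. Elsewhere, scaling by library size gave 10 members that rose in A2780 at 6 h, and 21 that rose and 3 that fell at 12 h. It gave 11 that rose and 1 that fell in A2780cis at 6 h. In untreated A2780 it gave 6 higher at 12 h, beside 3851 of the 20240 genes tested. In untreated A2780cis it gave 13 lower at 12 h. The counts of all genes for the other comparisons are given above. Fitting the compared groups alone gave 4 and 6 that rose at 6 h in A2780 and A2780cis, 5 higher in untreated A2780cis than A2780 at 12 h, and 5 and 1 higher at 12 h in untreated A2780 and A2780cis. Members that rose in A2780 at 6 h numbered 1 under the DESeq2 Wald test, under DESeq2 size factors and with nuclear copies added. Without a filter 5 rose in A2780cis at 6 h, 1 was higher at 12 h in untreated A2780cis, and 3 differed between the responses of the lines at 6 h. The DESeq2 Wald test gave 5 that rose in A2780cis at 6 h and 1 that differed between the responses at 6 h. With the replicate block 5 rose in A2780cis at 6 h and 5 were higher at 12 h in untreated A2780, and no other count of members moved by over 1.5 times. The libraries were not treated as paired by their numbers, since correlations of same-numbered deviations were not all above 0.1.

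Leaving out each library in turn gave 0 to 3 that rose and 5 to 9 that fell in A2780 at 6 h, 7 to 10 and 4 to 7 in A2780 at 12 h, and 1 to 3 and 1 to 3 in A2780cis at 6 h. For untreated A2780cis against A2780 it gave 4 to 10 lower at 6 h and 10 to 16 lower at 12 h. For 12 h against 6 h it gave 1 to 4 higher and 0 to 8 lower in untreated A2780 and 13 to 20 lower in untreated A2780cis. The responses of the lines differed in 7 to 23 members at 12 h and in 0 to 1 at 6 h. Among values of single members, 91 calls were lost, 11 were gained and 960 stayed as they were over refits without a library, and 19 were lost, 47 gained and 1446 stayed over other refits. No call changed its direction in these refits. Depth limits the rarest tRNAs, since MT-TF fell to 9 counts in a library.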
